A study of Mus musculus with 8 samples.

Results

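De novo fatty acid synthesis builds fatty acids from acetyl-CoA in the cytosol, and 10 genes of it were examined in mouse thymus after spaceflight: Acly, Acss2, Me1, Acaca, Fasn, Elovl6, Scd1, Thrsp, Srebf1 and Mlxipl. They were chosen by their function with earlier results of the spaceflight comparison known, so their differences in that comparison are given as a description. Each gene was read from its probe set of highest mean over the 8 arrays among probe sets annotated to that gene alone, and all 10 were found among 19938 genes. No filter on low values was applied. The samples were thymus lobes of C57BL/6NTac mice, 8 weeks old at the start by the study's design, with 1 array per mouse. The 4 spaceflight mice spent 13 days aboard the space shuttle (STS-118), and the 4 ground-control mice, matched for age and sex, stayed on Earth, housed in like enclosure modules. No agent or genetic change was named for either group. Whole lobes were used, so the RNA came from thymocytes, supporting cells and any tissue attached to the lobe.

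In this pathway, ATP citrate lyase (Acly) splits exported citrate into acetyl-CoA, acetyl-CoA carboxylase (Acaca) turns acetyl-CoA into malonyl-CoA, and fatty acid synthase (Fasn) joins these units into palmitate with NADPH as the reductant. Insulin signalling through SREBP-1c (from Srebf1) and glucose signalling through ChREBP (from Mlxipl) switch the genes on together in liver and fat after feeding, and fasting lowers them. Dividing lymphocytes also make fatty acids for new membrane, and fat cells lie around and within the thymus.

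The values are log2 expression values, so a difference of 1 is a doubling or a halving. Not all arrays were alike. In spaceflight replicates 1 and 3 the values had an interquartile range of 2.22, against 2.55 to 2.84 in the remaining 6 arrays, and their Pearson correlation with the other 6 was 0.956 to 0.986 across genes, against 0.984 to 0.993 among those 6. With all arrays, the median difference of genes grouped by brightness ran from 0.11 to -0.14. It was -0.12 in the brightest of 10 equal groups, which held 7 of the 10 genes, and -0.0046 there without replicates 1 and 3. Rag1, a thymocyte marker that cuts T cell receptor genes for rearrangement, was bright in every array. It was at 12.29 to 12.64 in ground control and 12.35 to 12.55 in spaceflight, and so matched the labelled tissue. The marker Ptcra was dimmer, at 6.44 to 6.81 in ground control and 6.26 to 6.68 in spaceflight, against array medians of 6.14 to 6.29. Rag1 differed least of the 8 measured thymocyte markers (-0.02). All 8 had a lower mean in spaceflight, against 53.5% of all genes. In 2 of the 8 all flown mice were below all controls, against 4.28% of all genes. In whole lobes, fewer cells of a type and less RNA per cell cannot be told apart.

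Every one of the 10 genes had a lower mean after spaceflight, where 53.5% of all genes did. The median of the 10 differences was -1.04, against -0.02 over all genes. In 7 of the 10 genes all 4 spaceflight arrays lay below all 4 ground-control arrays, which was the case for 4.28% of all genes. The reverse held for 0 of the 10 genes and for 1.73% of all genes. The fit across all genes (limma with Benjamini-Hochberg adjustment, threshold 0.05) called 2 of the 10, Acly and Thrsp, both as lower, where it called 0.0802% of all genes, 0.0652% as lower and 0.015% as higher. Without spaceflight replicates 1 and 3 it called Acly, Me1 and Thrsp as lower, where it called 0.0401% of all genes as lower; that fit called 16 genes, 8 lower and 8 higher, against 13 lower and 3 higher with all arrays. These shares are background only, since the genes were picked with this comparison in view. Ranked from the most negative difference over 19938 genes, Me1 stood at 13, Acaca at 16, Acly at 18, Thrsp at 19, Acss2 at 29, Fasn at 31, Elovl6 at 131, Mlxipl at 264, Scd1 at 346 and Srebf1 at 665.

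Promoter sequence is shown because these genes differed in the same direction and several share known regulators. For 9 of the 10 genes the RefSeq promoter table (GRCm38.p6) held 13 promoters, with 3 for Srebf1 and 2 each for Me1 and Mlxipl, and Scd1 had no entry. The 250 bases before each start site were searched on both strands for 4 motifs: the core of the sterol regulatory element bound by SREBP, TCACCCCAC; the E-box, CACGTG, the core of sites for USF and ChREBP; the CCAAT box bound by NF-Y; and the GC box, GGGCGG, bound by Sp1. The sequences run 5' to 3' in the direction of the gene up to the base before the start, with matches to any of the 4 motifs in capitals. Acly and Thrsp are shown as the called genes, Acss2 and Me1 (the start site that lies farther upstream) as the next by p-value, Fasn for its pair of CCAAT boxes, and Mlxipl (the start site that lies farther upstream) as the promoter with an E-box.
Acly, chr11:100528001-100528250, minus strand: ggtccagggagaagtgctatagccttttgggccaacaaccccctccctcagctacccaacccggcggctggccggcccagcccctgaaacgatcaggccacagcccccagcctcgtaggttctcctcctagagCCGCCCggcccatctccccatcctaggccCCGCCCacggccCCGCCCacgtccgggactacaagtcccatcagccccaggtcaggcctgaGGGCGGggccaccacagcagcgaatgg
Thrsp, chr7:97417551-97417800, minus strand: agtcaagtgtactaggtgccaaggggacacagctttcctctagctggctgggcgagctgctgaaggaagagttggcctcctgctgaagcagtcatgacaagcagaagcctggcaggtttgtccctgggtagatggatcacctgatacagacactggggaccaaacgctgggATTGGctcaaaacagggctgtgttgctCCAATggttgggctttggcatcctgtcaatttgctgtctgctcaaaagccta
Acss2, chr2:155517793-155518042, plus strand: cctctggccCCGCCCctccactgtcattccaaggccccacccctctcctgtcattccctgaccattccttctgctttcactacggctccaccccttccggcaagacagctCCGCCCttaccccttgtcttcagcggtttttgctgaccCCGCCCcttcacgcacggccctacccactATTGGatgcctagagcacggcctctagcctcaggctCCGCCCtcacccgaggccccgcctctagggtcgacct
Me1, chr9:86695915-86696164, minus strand: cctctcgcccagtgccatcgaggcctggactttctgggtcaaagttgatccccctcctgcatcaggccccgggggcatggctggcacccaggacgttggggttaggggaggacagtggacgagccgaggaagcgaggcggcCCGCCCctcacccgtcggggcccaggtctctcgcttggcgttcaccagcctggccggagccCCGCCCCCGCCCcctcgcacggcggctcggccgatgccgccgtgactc
Fasn, chr11:120824548-120824797, minus strand: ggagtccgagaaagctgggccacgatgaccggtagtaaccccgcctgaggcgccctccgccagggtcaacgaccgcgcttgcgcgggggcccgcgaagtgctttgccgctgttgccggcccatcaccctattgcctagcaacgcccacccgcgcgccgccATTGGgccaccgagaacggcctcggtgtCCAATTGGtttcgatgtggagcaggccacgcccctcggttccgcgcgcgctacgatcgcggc
Mlxipl, chr5:135089640-135089889, plus strand: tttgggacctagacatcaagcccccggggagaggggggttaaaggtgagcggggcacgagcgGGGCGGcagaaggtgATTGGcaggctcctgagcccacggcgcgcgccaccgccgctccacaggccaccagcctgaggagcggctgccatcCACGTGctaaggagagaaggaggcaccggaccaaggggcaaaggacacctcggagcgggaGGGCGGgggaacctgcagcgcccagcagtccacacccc

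The called genes carried different motifs. Acly had 4 GC boxes, its nearest from 27 to 22 bases before the start, and no CCAAT box. Thrsp had CCAAT boxes from 79 to 75 and from 52 to 48 bases before the start and no GC box. In Fasn, CCAAT boxes on opposite strands overlapped, from 62 to 58 and from 59 to 55 bases before the start, and a further one lay from 90 to 86. The CCAAT box was in 7 of the 13 promoters (6 genes), against 33.8% of 32851 promoters in the table over the same 250 bases. The GC box was in 6 of 13 (5 genes), against 32.7%. The E-box was in 1 of 13, the Mlxipl promoter shown, against 6.02%, and the core of the sterol regulatory element as spelled here was in 0 of 13, against 0.496%. A match here is a run of letters only, and the absence of a match covers only these letters in this window. The arrays do not tell from which start site a transcript came.

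The 3 genes that supply carbon and reducing power were lower in all 4 spaceflight arrays than in any ground-control array. Acly was at 10.36, 10.84, 10.82 and 10.58 in ground-control replicates 1 to 4 and at 9.59, 9.32, 9.54 and 9.22 in spaceflight replicates 1 to 4. The 2 groups were separated by 0.77 between their nearest arrays, more than the whole range within spaceflight. Acly fell 2.35-fold, by 1.23 ± 0.14 (log2 difference ± SE; n = 4 each; limma adjusted p = 0.00545). The call held whichever array was left out (differences from -1.33 to -1.17) and without spaceflight replicates 1 and 3 (-1.38, limma adjusted p = 0.0123). It ended when arrays were centred on their 75th percentile (-1.09, limma adjusted p = 0.122), a scaling that raised the median difference of all genes by 0.14.

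Acss2, which makes cytosolic acetyl-CoA from acetate in place of citrate, was at 8.67, 9.14, 9.60 and 9.15 in ground control and at 7.81, 8.14, 8.17 and 8.24 in spaceflight. The spaceflight arrays lay close together (SD 0.19) and the ground-control arrays spread more (SD 0.38). Its difference was -1.05 ± 0.18 and was not called with all arrays (limma adjusted p = 0.0666). Of the cases with arrays left out, it was called without ground-control replicate 1, its lowest control (-1.21, limma adjusted p = 0.0281). Me1, the cytosolic malic enzyme that makes NADPH while turning malate into pyruvate, was at 10.71, 11.21, 11.30 and 11.14 in ground control and at 9.51, 9.80, 10.47 and 9.36 in spaceflight. Spaceflight replicate 3 was the highest of its group, 0.23 below the lowest control. The Me1 difference was the most negative of the 10 genes, at -1.30 ± 0.22, and was not called with all arrays (limma adjusted p = 0.0666). Of the cases with arrays left out, it was called without spaceflight replicate 3 (-1.53, limma adjusted p = 0.01) and without replicates 1 and 3 together (-1.51, limma adjusted p = 0.0228). The other Me1 probe set, read from a fit on all probe sets, differed by -1.30 ± 0.23.

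**Figure D1:**
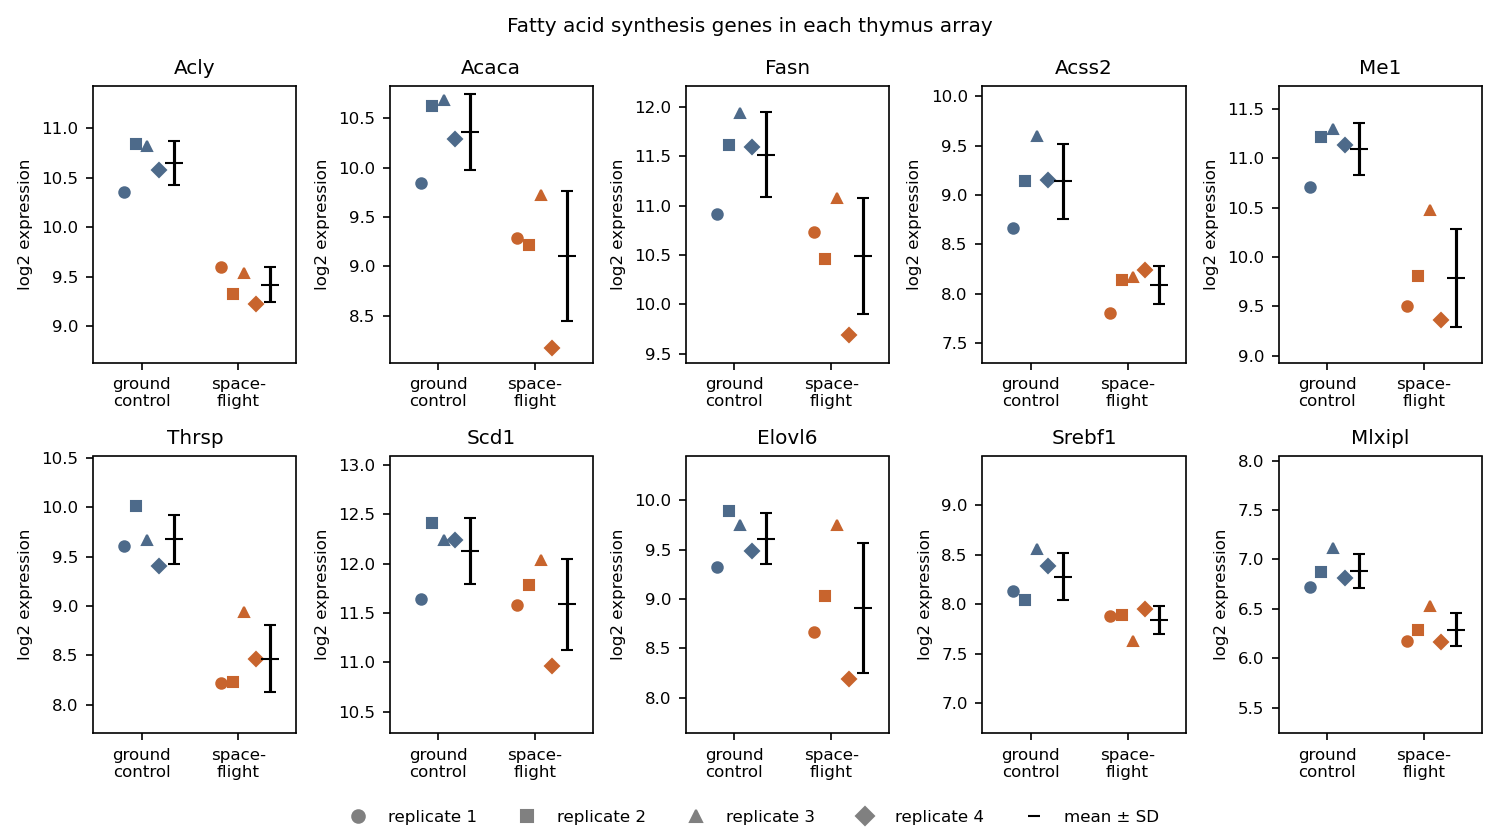
Log2 expression of the 10 fatty acid synthesis genes in each array, 1 panel per gene, for ground control (blue) and spaceflight (orange); the marker shape gives the replicate number and the bar the mean ± SD (n = 4), and every vertical axis spans the same range. The groups are apart in 7 genes, Acly most clearly, and overlap in Fasn, Scd1 and Elovl6, where spaceflight replicate 3 is the highest and replicate 4 the lowest of the flown mice.

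The enzymes that build the chain, Acaca and Fasn, varied more among the flown mice. Acaca, which makes malonyl-CoA in the committed step, was at 9.85, 10.62, 10.68 and 10.29 in ground control and at 9.28, 9.22, 9.73 and 8.17 in spaceflight. The groups did not overlap, by a margin of 0.12 between spaceflight replicate 3 and ground-control replicate 1. The difference was -1.26 ± 0.29, about as large as that of Acly, but the SD within spaceflight was 0.66 and the gene was not called (limma adjusted p = 0.167). The other Acaca probe set was at 8.63, 9.62, 9.63 and 9.22 in ground control and at 8.06, 7.94, 8.54 and 7.04 in spaceflight, and differed by -1.38 ± 0.31 in that same fit. Both probe sets put the same flown mouse, replicate 4, lowest.

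Fasn, which carries out the repeated condensation and reduction steps, was at 10.91, 11.62, 11.94 and 11.59 in ground control and at 10.73, 10.46, 11.07 and 9.69 in spaceflight. Spaceflight replicate 3 was above ground-control replicate 1, so the groups overlapped in that pair. Its difference was -1.03 ± 0.28 and was not called (limma adjusted p = 0.256). It was nearest to 0 without spaceflight replicate 4, and with 1 array at a time left out it ran from -1.23 to -0.76.

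Genes that modify the finished chain differed less. Elovl6, which lengthens palmitate to stearate, was at 9.32, 9.89, 9.75 and 9.49 in ground control and at 8.67, 9.04, 9.75 and 8.19 in spaceflight. Spaceflight replicate 3 equalled ground-control replicate 3 to 2 decimals, while spaceflight replicates 1, 2 and 4 were below all controls. The difference was -0.70 ± 0.27 (limma adjusted p = 0.402). Scd1, which puts the double bond into stearate to give oleate, was at 11.65, 12.41, 12.24 and 12.24 in ground control and at 11.58, 11.78, 12.03 and 10.96 in spaceflight. Ground-control replicate 1 lay below 2 of the 4 flown mice, and the difference was -0.54 ± 0.22 (limma adjusted p = 0.423). Without spaceflight replicate 4 the differences were nearer to 0, at -0.46 for Elovl6 and -0.33 for Scd1. Neither gene was called with any array left out or under any other setting tried.

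Of the regulators, Thrsp was called and the transcription factor genes were not. Thrsp, whose small protein (Spot 14) responds to thyroid hormone and carbohydrate and promotes lipogenesis, was at 9.61, 10.01, 9.67 and 9.41 in ground control and at 8.22, 8.23, 8.94 and 8.46 in spaceflight. All flown mice were lower than all controls by at least 0.46. Thrsp fell 2.31-fold, by 1.21 ± 0.18 (limma adjusted p = 0.03). The call held without spaceflight replicate 3 (-1.37, limma adjusted p = 0.01) and without replicates 1 and 3 together (-1.33, limma adjusted p = 0.0228), but without spaceflight replicate 1, 2 or 4, or any of the ground-control replicates, the limma adjusted p lay between 0.0612 and 0.138 with differences from -1.30 to -1.10. It also ended when all probe sets were tested (limma adjusted p = 0.0772), when quantile normalization was repeated (-1.09, limma adjusted p = 0.108) and with centring on the 75th percentile (-1.07, limma adjusted p = 0.221).

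Mlxipl, which encodes the glucose-responsive factor ChREBP, was at 6.72, 6.87, 7.12 and 6.81 in ground control and at 6.17, 6.28, 6.53 and 6.17 in spaceflight. The groups did not overlap, and the difference was -0.59 ± 0.13 (limma adjusted p = 0.13). Srebf1, which encodes the SREBP-1 proteins, was at 8.13, 8.05, 8.56 and 8.39 in ground control and at 7.88, 7.89, 7.63 and 7.95 in spaceflight. Its groups were separated by 0.09, the narrowest margin of the 7 genes without overlap. The difference was -0.44 ± 0.14 (limma adjusted p = 0.318), the least negative of the 10. The annotation does not say whether the probe set reads the SREBP-1a form, the SREBP-1c form or both.

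Most of the 10 genes had the same mice at the ends of each group. Spaceflight replicate 4 was the lowest flown mouse in 7 genes and replicate 3 the highest in 7. The exceptions at the low end were Acss2 and Thrsp, lowest in replicate 1, and Srebf1, lowest in replicate 3. At the high end, Acss2 and Srebf1 were highest in replicate 4 and Acly in replicate 1. Among controls, replicate 1 was lowest in 8 genes and below the group mean in all 10, and replicate 3 was highest in 6 and replicate 2 in 4. The mean over the 10 genes was 9.59, 10.07, 10.17 and 9.91 in ground control and 8.94, 9.02, 9.39 and 8.64 in spaceflight. The highest flown mouse was thus 0.21 below the lowest control on this mean. Without replicates 1 and 3, the differences of Acly, Acaca, Fasn, Me1, Thrsp, Scd1, Elovl6 and Mlxipl were more negative than with all arrays, and those of Acss2 (-0.95) and Srebf1 (-0.36) less so. The largest move was that of Fasn, from -1.03 to -1.44, and Acaca moved to -1.66.

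**Figure D2:**
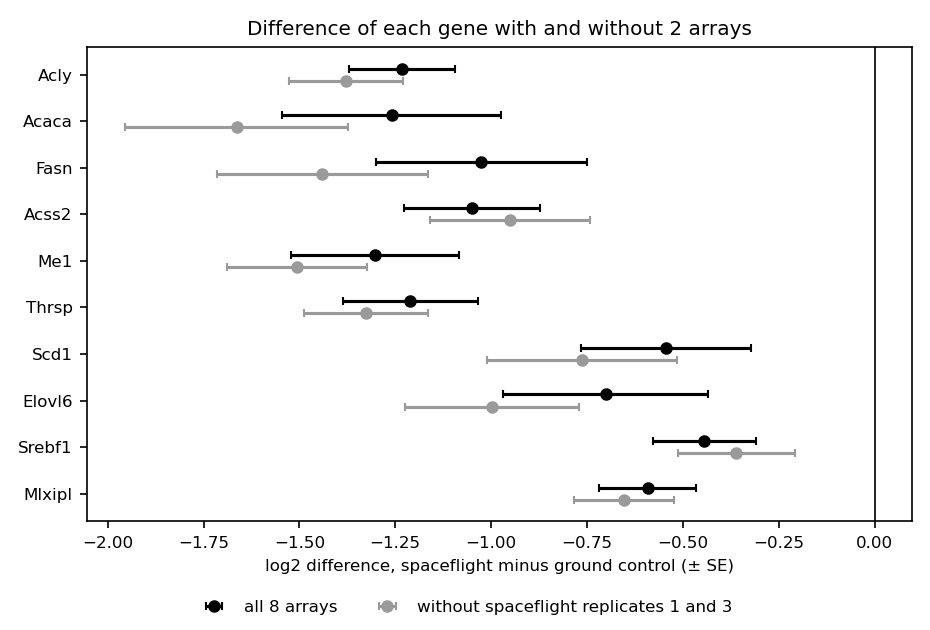
Log2 difference (spaceflight minus ground control, ± SE) of each of the 10 genes with all 8 arrays (black) and without spaceflight replicates 1 and 3 (grey). All points lie below 0, from -1.30 (Me1) to -0.44 (Srebf1) with all arrays and from -1.66 (Acaca) to -0.36 (Srebf1) without the 2 arrays.

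Genes around the 10 were read from lists drawn up by role, 84 genes in all, of which 79 were measured. Of these, limma called 0 in either direction, where it called 0.0802% of all genes. At an unadjusted p under 0.05, 18 were lower and 0 higher, where 7.38% of all genes were lower and 3.43% higher. In 13 all 4 flown mice were below all controls, where 4.28% of all genes were so. A total of 64 had a lower mean. Their median difference was -0.22, and -0.07 without spaceflight replicates 1 and 3, against -0.02 and -0.01 over all genes.

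Insig1, Slc25a1, Pnpla3 and Scd2 had the smallest p-values of the measured genes in these lists. The lists were drawn up as genes around the 10, so nearness in the pathway is not a result. Slc25a1, the carrier that exports the mitochondrial citrate on which Acly acts, was at 8.95, 9.52, 9.74 and 9.64 in ground control and at 8.29, 8.52, 8.80 and 8.28 in spaceflight. Its groups did not overlap, and the difference was -0.99 ± 0.18 (limma adjusted p = 0.0805), called without ground-control replicate 1 (-1.16, limma adjusted p = 0.0281). Insig1, which holds SREBP precursors in the endoplasmic reticulum and is itself an SREBP target, was at 8.88, 9.25, 9.18 and 9.26 in ground control and at 8.06, 8.61, 8.38 and 8.12 in spaceflight. It differed by -0.85 ± 0.14 (limma adjusted p = 0.0666), and was called without spaceflight replicate 2 (-0.96, limma adjusted p = 0.0392). Pnpla3, a lipid droplet protein gene driven by SREBP-1c and ChREBP, differed by -0.89 ± 0.17 (limma adjusted p = 0.0923), with all flown mice below all controls. Scd2, the desaturase related to Scd1, differed by -0.63 ± 0.12 (limma adjusted p = 0.0942), again without overlap.

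By role, the carbon and NADPH list (12 of 13 genes measured) had a median difference of -0.21. Besides Slc25a1 it held Aacs, which activates acetoacetate for lipid synthesis, at -0.65 ± 0.14. The malonyl-CoA list (12 of 12) had a median of -0.18, with Acacb, the carboxylase of the mitochondrial surface, at -0.67 ± 0.21 and Prkag2, an AMPK subunit, at -0.27 ± 0.14. Elongation and desaturation (20 of 20) had a median of -0.29, with Tecr, the last enzyme of the elongation cycle, at -0.31 ± 0.11. The glycerolipid list (15 of 17) had a median of -0.22, with the acyltransferases Agpat2 at -0.84 ± 0.22 and Agpat1 at -0.58 ± 0.19. Mitochondrial fatty acid synthesis, a separate route that serves lipoic acid and the respiratory chain, had a median of -0.12 (6 of 6), with Mecr at -0.54 ± 0.15 and Ndufab1 at -0.36 ± 0.15. The regulator list (14 of 16) had a median of -0.18. None of the genes of this paragraph was called by limma. Without spaceflight replicates 1 and 3 the medians were nearer to 0, at -0.08 for carbon and NADPH, -0.06 for malonyl-CoA, -0.14 for elongation and desaturation, -0.05 for glycerolipids and -0.02 for regulators, and that of mitochondrial synthesis turned to 0.02.

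**Figure D3:**
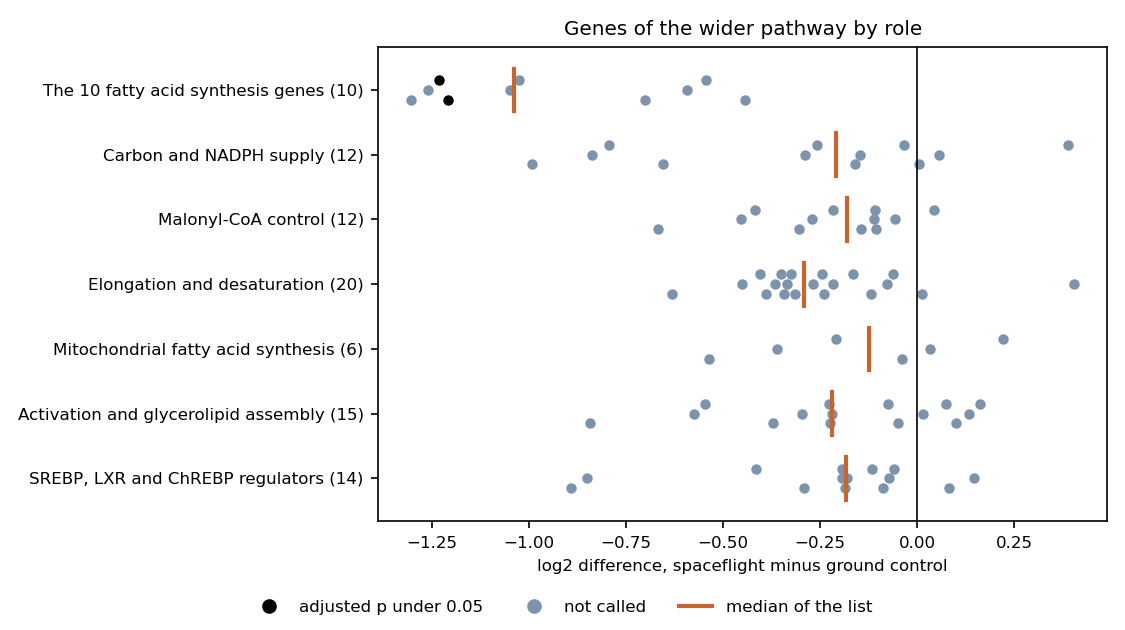
Log2 difference (spaceflight minus ground control) of each measured gene, 1 row per list with the number of genes in brackets; black points were called at a limma adjusted p under 0.05, blue points were not, and the orange line is the median of the list. The median of the 10 genes is -1.04, and those of the other lists lie between -0.29 and -0.12 (between -0.14 and 0.02 without spaceflight replicates 1 and 3).

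Over all genes, the 5 whose log2 values over the 8 arrays, each taken from its own mean, lay nearest to those of Acly were Ptger3, Serpinh1, Wdr78, Slc25a1 and Hcar1. Their root mean square distances were 0.15, 0.22, 0.23, 0.24 and 0.25 on the log2 scale. Ptger3 encodes a prostaglandin E2 receptor, Serpinh1 a collagen chaperone and Hcar1 the lactate receptor of fat cells. Nearest to the mean of the 10 genes were Slc25a1 (0.13), Hcar1 (0.15), Klhdc7a (0.17), A530016L24Rik (0.18) and Acacb (0.18). Among the 10 genes themselves, Thrsp (0.25), Acss2 (0.27) and Me1 (0.28) lay nearest to Acly, and Srebf1 (0.46) lay farthest. These distances are descriptions of 8 arrays. They hold the difference between the groups, so genes with a like difference lie near each other. They do not show likeness among mice within a group. Of the nearest genes, limma called Ptger3 (-1.25), Serpinh1 (-0.87), Wdr78 (-0.95) and Klhdc7a (-0.76) as lower, against 0.0652% of all genes.

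White fat markers had a lower mean in spaceflight, with the groups overlapping. The mean of 13 measured white fat markers was 8.54, 8.76, 9.11 and 8.66 in ground control and 7.71, 8.60, 8.60 and 8.61 in spaceflight. Of the flown mice 3 lay above the lowest control, replicate 1, and all 4 lay below the other 3 controls. The controls had the same order for the fat mean as for the mean of the 10 genes (replicates 1, 4, 2 and 3 from the lowest up). Among flown mice, spaceflight replicate 4, the lowest for the 10 genes, had a fat mean close to those of replicates 2 and 3. Spaceflight replicate 1 had the lowest fat mean, with Adipoq, the adiponectin gene of mature fat cells, at 7.31 against 8.98 to 9.18 in the other flown mice, and at 9.16, 9.20, 9.67 and 8.996 in controls. The white fat mean differed by -0.38 with all arrays and by -0.16 without replicates 1 and 3, where the mean of the 10 genes differed by -0.94 and -1.10. Over all genes limma called 0.0802%, and at an unadjusted p under 0.05 had 7.38% lower and 3.43% higher. All flown mice were below all controls in 4.28% of all genes. These shares stand behind this and the following marker counts. Of the 13 markers limma called 0, with 5 lower and 0 higher at an unadjusted p under 0.05. Among the 5 were Lep, the leptin gene, at -0.75 ± 0.21, and the only 2 of the 13 with all flown mice below all controls, the hormone gene Retn at -0.83 ± 0.22 and the adipogenic factor gene Pparg at -0.60 ± 0.17. The 7 brown fat markers, of which limma called 0 with 0 at an unadjusted p under 0.05, had means of 8.13 to 8.48 in ground control and 7.24 to 8.48 in spaceflight. The brown fat mean differed by -0.21 with all arrays and by 0.07 without spaceflight replicates 1 and 3. No marker was at 0, but the log2 values do not reach 0 (lowest 1.82), so this alone does not show that a marker was expressed. The array medians over all genes were 6.14 to 6.29. The brown fat marker Ucp1 lay above them, at 10.97 to 11.44 in ground control and 10.01 to 11.29 in spaceflight. So did the white fat marker Fabp4 (10.94 to 11.18 and 10.46 to 11.22). Lep (4.77 to 5.96 and 4.50 to 4.90) and Ppargc1a (5.50 to 5.58 and 4.49 to 5.82) lay below them.

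Liver markers had a lower mean in spaceflight, with the groups overlapping. The mean of 6 measured liver genes was 5.51, 6.14, 6.70 and 7.40 in ground control and 5.50, 5.23, 5.53 and 5.31 in spaceflight. This mean differed by -1.05 with all arrays and by -1.17 without spaceflight replicates 1 and 3. The mean of the 10 fatty acid synthesis genes differed by -0.94 and -1.10. Alb, the albumin gene, was at 6.10, 7.79, 8.88 and 9.95 in ground control and at 5.24, 4.88, 5.46 and 4.94 in spaceflight, a difference of -3.05 ± 0.60 (limma adjusted p = 0.106). All flown mice were below all controls for Alb alone of the 6, against 4.28% of all genes. In the flown mice Alb lay below the median of all genes, which was 6.14 to 6.29 across the arrays. Of the 6 genes limma called 0, with 5 lower at an unadjusted p under 0.05. Over the 10 fatty acid synthesis genes the means were 9.59, 10.07, 10.17 and 9.91 in ground control and 8.94, 9.02, 9.39 and 8.64 in spaceflight. Among controls replicate 1 was lowest in both means. The highest control was replicate 4 for liver genes and replicate 3 for the 10 genes. Thymic epithelial markers (9 genes) had means of 8.38 to 8.49 in ground control and 7.86 to 8.21 in spaceflight, without overlap. The epithelial mean differed by -0.40 with all arrays and by -0.25 without spaceflight replicates 1 and 3. Of the 9 genes limma called 0, with 5 lower at an unadjusted p under 0.05. In 4 of the 9 all flown mice were below all controls, against 4.28% of all genes. Macrophage markers (5 genes) had means of 8.15 to 8.55 and 7.33 to 8.48, and thymocyte markers (8 genes) 10.38 to 10.46 and 10.12 to 10.40. The macrophage mean differed by -0.30 with all arrays and by 0.13 without spaceflight replicates 1 and 3. The thymocyte mean differed by -0.14 and -0.07. Of the macrophage and thymocyte markers limma called 0, with 1 lower in each list at an unadjusted p under 0.05. The part of fat, liver and epithelial transcripts in the result was not tested.

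**Figure D4:**
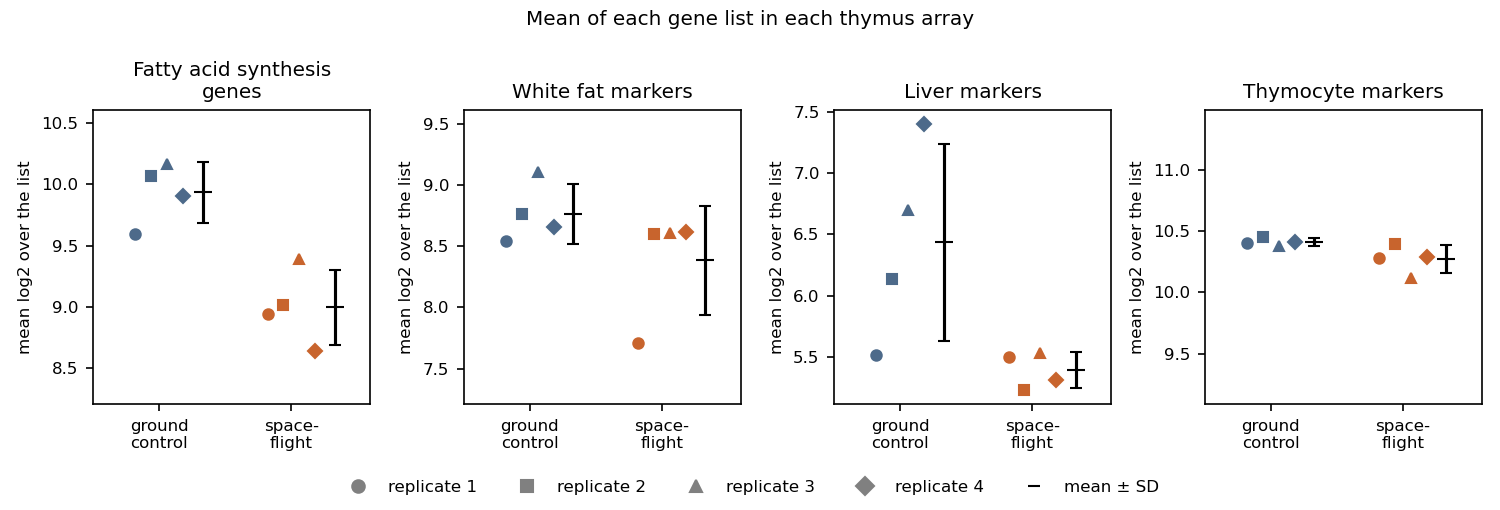
Mean log2 value in each array over the 10 fatty acid synthesis genes, 13 white fat markers, 6 liver markers and 8 thymocyte markers, for ground control (blue) and spaceflight (orange); the marker shape gives the replicate number and the bar the mean ± SD (n = 4). The groups are apart for the fatty acid synthesis genes, as they were for thymic epithelial markers, which are not drawn. In white fat 3 flown mice lie above the lowest control, and all 4 lie below the other 3 controls. Liver markers spread widely among controls.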

How the data were processed

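Trizol RNA, 6 µg per mouse, was labelled as biotin cRNA for Affymetrix arrays, per the labels' protocols. The deposited values are log2 expression from RMA, per the submitters' processing notes, which also name limma; versions, genome build and filters: not given in the sources used here. RMA is meant to equalise arrays and can hide a shift shared by all genes. Over the 19938 genes the interquartile ranges of these arrays still ran from 2.22 to 2.84. No arrays were identical.

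Of 35557 probe sets, the lowest unbroken run of identifiers (6614, without annotation) was left out as controls. Of the other 28943, 21789 had 1 gene, 1621 several and 5533 none; 21698 matched RefSeq GRCm38.p6 by Entrez identifier. The probe set of highest mean stood for a gene. All 19938 genes were fitted with limma 3.58.1 in R 4.3.3 (two-sided, Benjamini-Hochberg over all genes, no block). The number of arrays limits precision. The script was checked on simulated data.

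The 10 genes and all lists were chosen with earlier results of these data known. Named genes were the 10, the 2 of smallest p per pathway list and the 5 nearest in pattern. Rag1, Ptcra, Adipoq, Fabp4, Lep, Retn, Pparg, Lpl, Ucp1, Ppargc1a, Elovl3 and Alb were chosen after their values were seen. Alternatives were other scalings, array weights, a variance trend, a dim-gene filter, other probe set rules, a replicate block and left-out arrays.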

Additional observations from a re-analysis of the deposited data

How the results depend on the processing

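All 10 differences stayed below 0 in each of the 19 alternatives in which they were computed. In some of these the difference itself could not change, only its SE or p-value. These were the variance trend, the dim-gene filter, the replicate block and either use of all probe sets. For genes with 1 probe set, the mean of all probe sets also left the difference as it was. The count of genes called was 16 (13 lower, 3 higher). It was 6 (3 lower, 3 higher) with centring on the 75th percentile, 10 when all probe sets were tested, 10 with all probe sets in the fit and adjustment over genes (chosen after seeing the data), and 6 to 15 with a single array left out: 9 without spaceflight replicate 1, 10 without spaceflight replicate 3, and 9, 8, 6 and 7 without ground-control replicates 1, 2, 3 and 4. The number of the 10 genes called was 2. It was 0 with centring on the 75th percentile, 1 with repeated quantile normalization, 1 under either use of all probe sets, and 1 to 3 with a single array left out. It was 3 without spaceflight replicates 1 and 3 together, where 16 genes were called in all (8 lower, 8 higher). Deviations of same-numbered mice from their group means had correlations of 0.24, -0.30, -0.10 and 0.07. With 4 mice per group these cannot tell whether the numbers pair mice, and the main fit used no block. With the replicate block 4 of the 10 genes were called, Acss2 and Me1 in addition, and 20 genes in all. Of the wider pathway 0 genes were called, 1 with the replicate block, and 0 to 1 with a single array left out.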

Other observations

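Of the 79 measured genes of the wider pathway, 15 had a higher mean after spaceflight and 0 of those were at an unadjusted p under 0.05 in limma. The most positive was Elovl3, an elongase typical of active brown fat, at 6.77, 7.08, 6.84 and 6.59 in ground control and at 6.03, 7.61, 7.38 and 7.88 in spaceflight, a difference of 0.40 ± 0.31. Spaceflight replicate 1 was the lowest array and the other 3 flown mice were above all controls. The difference without spaceflight replicates 1 and 3 was 0.93. Lpl, the lipase that frees fatty acids from circulating lipoproteins, was the single white fat marker with a higher mean, at 9.57 to 10.16 in ground control and 9.41 to 10.49 in spaceflight, a difference of 0.41 ± 0.23 and of 0.63 without those 2 mice.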
